A study of Mus musculus with 6 samples.

Results

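The nuclear genes of mitochondrial complex I and its assembly factors were followed in mouse liver. All rows whose gene name begins with Nduf were taken, which gave 47 of the 25102 genes in the table. They held 36 subunits (7 catalytic core subunits and 29 supernumerary ones), 8 assembly factors (Ndufaf1 to Ndufaf8) and 3 other members. These 3 were Ndufa4, now assigned to complex IV, its paralog Ndufa4l2, and the processed pseudogene Ndufab1-ps. Genes were tested where their average across the 6 libraries reached 1 FPKM (fragments per kilobase of gene and per a fixed number of mapped fragments), and 45 members passed: every subunit, 6 assembly factors and the 3 other members. Ndufaf4, with a mean of 0.993 FPKM, and Ndufaf5, with 0.768 FPKM, lay below that limit, and Ndufaf2, with 1.10 FPKM, lay just above it.

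The libraries came from livers of male C57BL/6J mice, 3 in the DEN+CCl4 group and 3 in the control group, aged 2 weeks when they were assigned. DEN+CCl4 mice were injected once with the liver carcinogen diethylnitrosamine (DEN) at 1 mg/kg, and after about 6 weeks with carbon tetrachloride (CCl4), a hepatocyte toxin, at 0.2 mL/kg 2 times a week over at most 14 weeks. What control mice were given, the age at sampling, and whether tumour or surrounding liver was taken are not stated in the labels. Replicates are numbered in the labels without any animal being named, and p-values therefore measure only the spread between these samples.

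Complex I is the NADH:ubiquinone oxidoreductase of the inner mitochondrial membrane. Its matrix arm passes electrons from NADH through flavin and iron-sulfur clusters to ubiquinone, and its membrane arm pumps protons that ATP synthase uses. The core subunits carry out catalysis, some of them encoded by mitochondrial DNA, whereas supernumerary subunits surround and stabilise the core, and assembly factors act on intermediates without staying in the finished enzyme. Hepatocytes are rich in mitochondria and depend on the complex to reoxidise NADH from fat oxidation.

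Promoters of nuclear respiratory genes often hold sites for NRF1, for ETS-family factors such as GABP (first described as NRF2), or for YY1. The 250 bases before the RefSeq start (build GRCm38.p6) could be searched for 40 of the 47 members. The letters searched, on both strands, were CCGGAAG for the ETS core, CGCATGCG for the NRF1 core, which reads the same on both strands, and AAGATGGC for the YY1 core. The ETS core ends in the letters AAG with which the YY1 core begins, so these 2 can share bases. At least 1 of the 3 was present before 5 of 32 subunit genes (15.6%) and 3 of 7 assembly factor genes (42.9%), against 10.8% of 27025 genes. A gene with several starts was counted once, and the 27025 genes were not limited to those found in these livers. The ETS core was found for 9.38% of subunit and 28.6% of assembly factor genes, against 7.83% of all genes. The NRF1 core was in 6.25% and 14.3%, against 1.75%, and the YY1 core was in 0 of either, against 1.83%. The assembly factor shares rest on few genes, 2 of 7 for the ETS core and 1 of 7 for the NRF1 core. The 3 promoters below hold such letters and belong to members at the ends of the range of differences: Ndufaf4 had the highest DEN+CCl4 mean relative to control, Ndufaf1 the lowest log2 fold change of the tested assembly factors, and Ndufb6 one of the 3 lowest of all tested members. The 3 were thus picked for holding a match as well as for their place in that range. Ndufa4 and Ndufb3, with lower log2 fold changes than Ndufb6, had no match. Ndufaf7, with the highest log2 fold change of the tested assembly factors, had none either. Each printed promoter is written 5′ to 3′ on its gene's strand with the matching letters in capitals.
Ndufaf4, chr4:24897833-24898082, plus strand: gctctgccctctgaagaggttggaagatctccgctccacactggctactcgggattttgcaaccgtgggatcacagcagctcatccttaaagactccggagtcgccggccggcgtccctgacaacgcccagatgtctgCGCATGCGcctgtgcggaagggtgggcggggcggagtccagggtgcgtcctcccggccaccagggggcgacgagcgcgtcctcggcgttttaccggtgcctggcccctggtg
Ndufaf1, chr2:119662835-119663084, minus strand: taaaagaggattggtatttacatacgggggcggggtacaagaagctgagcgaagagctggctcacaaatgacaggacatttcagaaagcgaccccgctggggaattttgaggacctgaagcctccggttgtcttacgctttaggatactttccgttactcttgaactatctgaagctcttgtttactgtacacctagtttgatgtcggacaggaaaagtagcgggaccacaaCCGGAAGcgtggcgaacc
Ndufb6, chr4:40279422-40279671, minus strand: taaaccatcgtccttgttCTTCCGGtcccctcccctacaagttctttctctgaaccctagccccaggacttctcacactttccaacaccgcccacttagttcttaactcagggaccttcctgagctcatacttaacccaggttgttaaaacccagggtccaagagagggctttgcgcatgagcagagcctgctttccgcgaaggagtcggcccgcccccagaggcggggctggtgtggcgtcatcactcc
The NRF1 core of Ndufaf4 began 112 bases before the start. The ETS core of Ndufaf1 began 18 bases before it, and that of Ndufb6, on the opposite strand, 232 bases before it. Matches are a description of the letters in these windows, not of binding.

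The libraries differed in composition in ways that touch every value below. Mitochondrially encoded genes took 36.9%, 40.6% and 64.2% of total FPKM in DEN+CCl4 livers 1, 2 and 3, against 26.6%, 43.0% and 31.8% in control livers 1, 2 and 3. Nuclear protein-coding genes took 44.0%, 34.7% and 5.68% in DEN+CCl4 livers, against 50.5%, 31.6% and 49.8% in control livers. DEN+CCl4 liver 3 thus stood apart from the other 5 libraries, with 16447 genes above 0 FPKM where the others had at least 19260. Members are therefore given both as deposited and as values relative to the summed FPKM of nuclear protein-coding genes in the same library, here called protein-coding rescaling, which was chosen after the data were seen.

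No Nduf subunit or assembly factor passed the test in either direction at an adjusted p of 0.05 (limma, Benjamini-Hochberg over 8528 genes). Of all genes tested, 0.645% were called lower and 0.833% higher in DEN+CCl4 livers, so counts of 0 among 45 tested members lie near the background. At an unadjusted p under 0.05, 0 subunits, 0 assembly factors and 1 other member, Ndufa4, were found, beside 7.60% of all genes tested in either direction. No alternative tool was run on these values, since they are not counts. As deposited, the log2 fold change (DEN+CCl4 minus control, on log2(FPKM + 1)) was below 0 for each of the 45 tested members and for 74.4% of all genes tested. The median log2 fold change was -1.12 over the 36 subunits (from -1.52 to -0.54) and -0.57 over the 6 tested assembly factors (from -0.83 to -0.28), beside -0.27 over all genes tested. After protein-coding rescaling the medians were -0.28 for subunits, -0.0039 for assembly factors and 0.30 for all genes tested. On that scale 31 subunits were negative and 5 positive, and 3 assembly factors were negative and 3 positive. Relative to the median of all genes tested, the subunit median was -0.85 as deposited, -0.73 with median-ratio scaling and -0.58 with protein-coding rescaling, while the assembly factor median was -0.30, -0.30 and -0.31 on the same scales. The scale log2(FPKM + 1) understates the change of low genes, and at a pseudocount of 0.01 the same values were -0.71 for subunits and -0.46 for assembly factors.

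**Figure D1:**
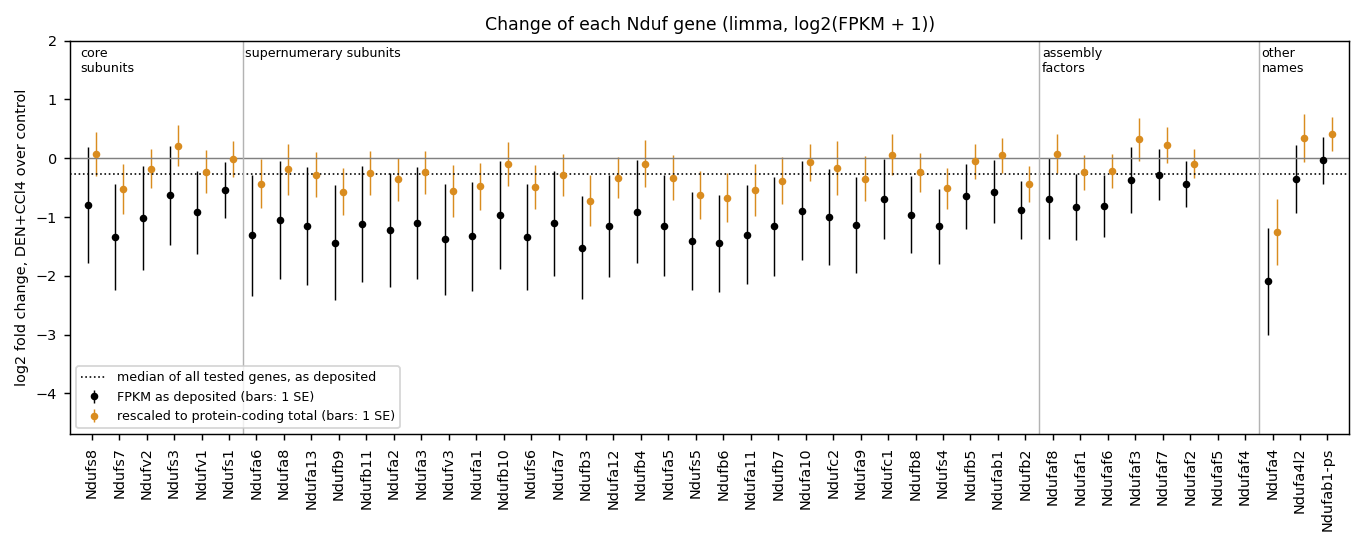
Log2 fold change of 44 of the 45 tested Nduf genes (DEN+CCl4 over control, limma on log2(FPKM + 1), n = 3 each) by class, with bars for 1 standard error, black as deposited and orange after protein-coding rescaling, and a dotted line at the median of all genes tested as deposited; Ndufaf4 and Ndufaf5 were not tested and have no point. Every black point lies below 0, from -2.09 for Ndufa4 to -0.03 for Ndufab1-ps, whereas some orange points lie above 0, such as that of Ndufs3 at 0.21 and of Ndufaf3 at 0.32.

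The difference was unequal among the 3 DEN+CCl4 livers. The median subunit stood at 105%, 52.6% and 13.3% of its control mean in DEN+CCl4 livers 1, 2 and 3, against 106%, 67.9% and 122% in control livers 1, 2 and 3. DEN+CCl4 liver 1 lay within the control range for 32 of the 36 subunits, and DEN+CCl4 liver 3 lay below all 3 controls for every subunit. DEN+CCl4 liver 2 lay below all 3 controls for 32 subunits (88.9%), whereas 22.7% of all genes tested did so in that library. In DEN+CCl4 liver 3 the share over all genes was 83.9%. Control liver 2 was the lowest control for 34 of the 36 subunits.

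Protein-coding rescaling brought the 2 low DEN+CCl4 livers closer to each other. The median subunit then stood at 106%, 71.3% and 67.9% of its control mean in DEN+CCl4 livers, against 92.8%, 90.7% and 112% in control livers. Over all genes tested the medians were 102%, 147% and 139% in DEN+CCl4 livers, against 81.2%, 126% and 91.9% in control livers. On this scale 0, 24 and 25 of 36 subunits (0%, 66.7% and 69.4%) lay below all 3 controls in DEN+CCl4 livers 1, 2 and 3, beside 13.0%, 15.2% and 21.3% of all genes tested. The summed subunit FPKM was 0.565%, 0.386% and 0.365% of protein-coding FPKM in DEN+CCl4 livers, against 0.511%, 0.488% and 0.597% in control livers. DEN+CCl4 livers 2 and 3 thus lay below every control in this share, and DEN+CCl4 liver 1 lay between the controls. With median-ratio scaling the median subunit stood at 95.6%, 40.8% and 36.1% in DEN+CCl4 livers, against 110%, 67.5% and 119% in control livers. All genes tested stood at 95.1%, 88.3% and 76.8% in DEN+CCl4 livers. Then 1, 36 and 32 of 36 subunits lay below all 3 controls, beside 19.9%, 38.2% and 47.3% of all genes tested. In bulk liver, fewer cells of a type and less RNA per cell cannot be told apart.

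**Figure D2:**
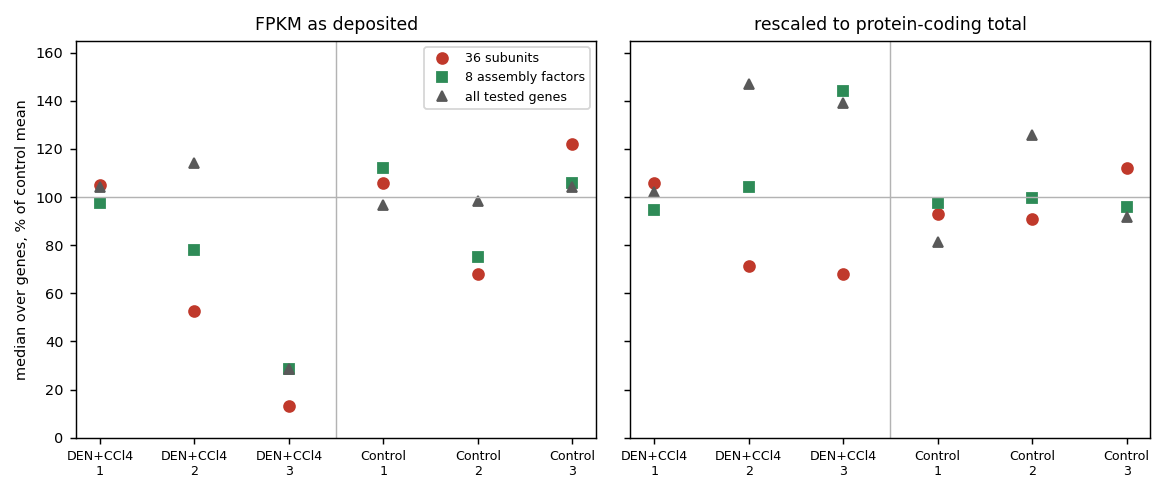
Median percent of the control mean in each library for subunits, assembly factors and all genes tested, as deposited and after protein-coding rescaling, with DEN+CCl4 libraries left of controls. Subunits stood at 71.3% and 67.9% in DEN+CCl4 livers 2 and 3 after rescaling, where all genes tested stood at 147% and 139%.

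Among the core subunits, which hold the flavin, the iron-sulfur clusters and the ubiquinone site in the matrix arm, the median log2 fold change was -0.80 as deposited. Ndufv1, on chromosome 19 (bases 4007384 to 4012806 on GRCm38, the build of all coordinates here), binds NADH and the flavin. It had 14.4, 8.30 and 1.33 FPKM in DEN+CCl4 livers, against 10.9, 9.92 and 16.4 FPKM in control livers. Its neighbour in the NADH-oxidising module, the iron-sulfur protein Ndufv2, had 40.7, 23.8 and 6.08 FPKM in DEN+CCl4 livers, against 38.7, 30.6 and 47.6 FPKM in control livers. In both genes DEN+CCl4 liver 1 reached control levels and the other treated livers lay under all controls.

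Ndufs1, the largest nuclear subunit, carries several iron-sulfur clusters and lies on chromosome 1 (63143596 to 63176833). It had 2.17, 1.76 and 0.68 FPKM in DEN+CCl4 livers, against 2.31, 2.90 and 2.51 FPKM in control livers. It was the subunit with the lowest level per length, and the one subunit whose groups did not overlap as deposited. Its log2 fold change of -0.54 (SE 0.48) had an adjusted p of 0.996 in limma. Ndufaf3 and Ndufaf7 also had groups that did not overlap, all lower in DEN+CCl4 livers. These 3 of 47 members (6.38%) stand beside 5.35% of all genes tested. After protein-coding rescaling the groups of all 3 overlapped, and with median-ratio scaling Ndufs1 alone stayed apart.

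Ndufs7, which carries the last cluster of the chain before ubiquinone, had 54.8, 24.9 and 3.97 FPKM in DEN+CCl4 livers, against 46.4, 40.6 and 57.6 FPKM in control livers. DEN+CCl4 liver 1 lay within the control range and the other treated livers lay under every control. In DEN+CCl4 liver 3, after protein-coding rescaling, Ndufs7 stood at 40.8% of its control mean. Its log2 fold change as deposited was -1.34 (SE 0.91).

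Ndufs3, an early-assembling core subunit, had 26.5, 17.8 and 8.40 FPKM in DEN+CCl4 livers, against 25.8, 20.98 and 29.8 FPKM in control livers. It kept the most of all subunits in DEN+CCl4 liver 3, at 32.9% of its control mean as deposited and 164% after protein-coding rescaling. Of its 31-base words, 22.8% also occur in other annotated genes, so its reads are less certain than those of most members. In all, 9 members shared at least 10% of their words. Beside Ndufs3 these were Ndufa12, Ndufb3, Ndufb4, Ndufb9, Ndufb11, Ndufs5, Ndufs6 and Ndufab1-ps. Ndufs8, whose clusters lie between Ndufs1 and Ndufs7, was the most abundant core subunit at 111, 71.0 and 14.0 FPKM in DEN+CCl4 livers, against 79.9, 77.2 and 99.2 FPKM in control livers. Its DEN+CCl4 mean was 76.5% of the control mean, the highest of the 36 subunits, and DEN+CCl4 liver 1 lay above every control.

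**Figure D3:**
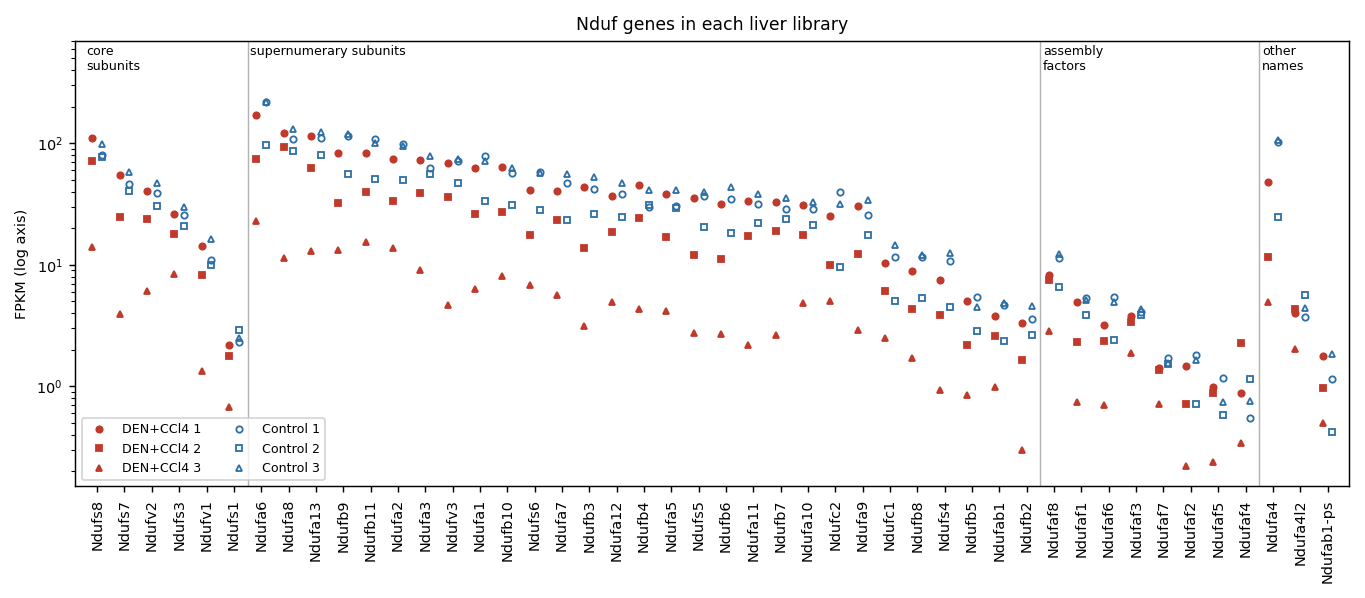
FPKM of 46 of the 47 Nduf genes in each library on a log axis, by class, with filled red symbols for the 3 DEN+CCl4 livers left of open blue symbols for the 3 control livers, and 1 symbol shape per replicate number. DEN+CCl4 liver 3 is the lowest treated value for every subunit and assembly factor drawn.

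The 29 supernumerary subunits had a median log2 fold change of -1.15 as deposited and -0.33 after protein-coding rescaling, where the core subunits had -0.80 and -0.01. The median supernumerary subunit stood at 105%, 67.0% and 67.0% of its control mean in DEN+CCl4 livers after rescaling, against 99.4%, 85.8% and 114% in control livers. The median core subunit stood at 106%, 88.9% and 80.3% in DEN+CCl4 livers, against 82.1%, 108% and 107% in control livers. The 16 matrix arm and 19 membrane arm subunits had medians of -1.14 and -1.10 as deposited. The difference between these classes was described and not tested.

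The most abundant subunit in control livers was Ndufa6, a matrix arm protein that binds the mitochondrial acyl carrier protein, on chromosome 15 (82350140 to 82354322). It had 171, 74.7 and 23.1 FPKM in DEN+CCl4 livers, against 218, 97.8 and 219 FPKM in control livers. Ndufb9, a membrane arm protein of the same LYR family, had 83.3, 32.2 and 13.4 FPKM in DEN+CCl4 livers, against 116, 56.0 and 120 FPKM in control livers. Both followed the same order of libraries, with control liver 2 between the controls and the low treated livers. Ndufb9 had the lowest value of all subunits in DEN+CCl4 liver 2, at 33.1% of its control mean, and another gene on the same strand, Gm49356, overlaps 19.5% of its exon bases.

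Ndufa8, a subunit that faces the intermembrane space, had 122, 93.7 and 11.3 FPKM in DEN+CCl4 livers, against 108, 87.4 and 132 FPKM in control livers. It was the subunit best kept in DEN+CCl4 liver 2, at 85.7% of its control mean. Ndufa13, also known as GRIM-19 and described outside the complex as a cell death regulator, had 114, 62.6 and 13.0 FPKM in DEN+CCl4 livers, against 111, 79.8 and 123 FPKM in control livers. Tssk6 overlaps 30.0% of its exon bases on the opposite strand, and without stated strand use their reads cannot be told apart. The X-linked membrane arm subunit Ndufb11 had 82.8, 40.0 and 15.5 FPKM in DEN+CCl4 livers, against 108, 51.2 and 101 FPKM in control livers, with DEN+CCl4 livers 2 and 3 under every control.

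The lowest log2 fold changes among subunits were those of 2 accessory proteins of the distal membrane arm. Ndufb3, on chromosome 1 (58586384 to 58595964), had 43.5, 13.7 and 3.16 FPKM in DEN+CCl4 livers, against 42.2, 26.4 and 53.1 FPKM in control livers. Its log2 fold change was -1.52 (SE 0.87, adjusted p = 0.776 in limma), and 13.5% of its 31-base words also occur in other annotated genes. Ndufb6, whose promoter is printed above, had 31.9, 11.2 and 2.72 FPKM in DEN+CCl4 livers, against 34.5, 18.3 and 44.1 FPKM in control livers. Its log2 fold change was -1.45 (SE 0.83, adjusted p = 0.777), and Smim27 overlaps 39.0% of its exon bases on the opposite strand. In both genes DEN+CCl4 liver 1 lay within the control range.

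The smallest adjusted p among subunits, 0.736 in limma, belonged to Ndufs4, a matrix arm subunit whose loss in mice gives a model of Leigh syndrome. It had 7.49, 3.84 and 0.94 FPKM in DEN+CCl4 livers, against 10.8, 4.52 and 12.6 FPKM in control livers, and the groups overlapped through control liver 2. Its mean of 4.09 ± 3.28 FPKM in DEN+CCl4 livers was 44.0% of the control mean of 9.29 ± 4.22 FPKM (SD, n = 3 each), the lowest such share of the subunits. Ndufa11, a membrane arm subunit, had the lowest share in DEN+CCl4 liver 3, at 7.04% of its control mean. Ndufab1, the mitochondrial acyl carrier protein, which also serves fatty acid synthesis in mitochondria and occurs in both arms, had 3.8, 2.58 and 0.99 FPKM in DEN+CCl4 livers, against 4.67, 2.38 and 4.85 FPKM in control livers.

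When DEN+CCl4 liver 1 was left out, 14 of 36 subunits had an unadjusted p under 0.05, all lower in DEN+CCl4 livers, beside 10.9% of all genes tested that were lower at that p, and still none was called. The smallest adjusted p among subunits was then 0.127 in limma, while 270 of all genes tested (3.17%) were called lower instead of 55. The median log2 fold change of the subunits was -1.68 without DEN+CCl4 liver 1 and -0.33 without DEN+CCl4 liver 3, so its size rests on those libraries.

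The 8 assembly factors, whose roles below are known mainly from human cells, had a median control mean of 2.85 FPKM where the subunits had 35.5 FPKM, with control means from 0.82 FPKM for Ndufaf4 to 10.1 FPKM for Ndufaf8. The median assembly factor stood at 97.7%, 78.1% and 28.4% of its control mean in DEN+CCl4 livers as deposited, against 112%, 75.1% and 106% in control livers. After protein-coding rescaling it stood at 94.8%, 104% and 144% in DEN+CCl4 livers, against 97.6%, 99.7% and 96.0% in control livers. On that scale 2, 2 and 1 of the 8 lay below all 3 controls in DEN+CCl4 livers 1, 2 and 3, beside 13.0%, 15.2% and 21.3% of all genes tested. Above all 3 controls lay 0, 2 and 5 of the 8, beside 18.9%, 58.2% and 52.2% of all genes tested. No factor was called, and the smallest adjusted p was 0.898 in limma, for Ndufaf6.

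Ndufaf1, a member of the assembly complex that builds part of the membrane arm, had 4.92, 2.32 and 0.74 FPKM in DEN+CCl4 livers, against 5.38, 3.88 and 5.18 FPKM in control livers. Its log2 fold change of -0.83 (SE 0.56) was the lowest of the tested factors, and only DEN+CCl4 liver 1 lay within the control range. Ndufaf6, needed for the early membrane intermediate around mt-Nd1, had 3.22, 2.36 and 0.70 FPKM in DEN+CCl4 livers, against 5.42, 2.39 and 4.92 FPKM in control livers. Its groups overlapped because control liver 2 was lower than DEN+CCl4 liver 1.

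Ndufaf3 and Ndufaf4 act together on the ubiquinone-binding module early in assembly, and their values are given side by side. Ndufaf3, on chromosome 9 (108565537 to 108567434), had 3.82, 3.39 and 1.87 FPKM in DEN+CCl4 livers, against 4.13, 3.85 and 4.31 FPKM in control livers, with the groups just apart. Ndufaf4 had 0.88, 2.28 and 0.34 FPKM in DEN+CCl4 livers, against 0.55, 1.15 and 0.76 FPKM in control livers. DEN+CCl4 liver 2 held its highest value and DEN+CCl4 liver 3 its lowest. It was the one member of 47 with a higher mean in DEN+CCl4 livers, 1.17 ± 1.00 FPKM against 0.82 ± 0.304 FPKM in control livers (SD, n = 3 each), and it was not tested because of its low level.

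The other factors act on single subunits or on late intermediates. Ndufaf5, which hydroxylates an arginine of Ndufs7, had 0.99, 0.88 and 0.24 FPKM in DEN+CCl4 livers, against 1.18, 0.58 and 0.74 FPKM in control livers. Ndufaf7, an arginine methyltransferase, had 1.41, 1.35 and 0.72 FPKM in DEN+CCl4 livers, against 1.72, 1.52 and 1.57 FPKM in control livers. Its log2 fold change of -0.28 (SE 0.43) was the highest among tested factors, although its groups did not overlap. Ndufaf8, the partner that stabilises Ndufaf5, had 8.28, 7.45 and 2.83 FPKM in DEN+CCl4 livers, against 11.5, 6.62 and 12.3 FPKM in control livers. Ndufaf2, a paralog of Ndufa12 that marks a late intermediate, had 1.46, 0.72 and 0.22 FPKM in DEN+CCl4 livers, against 1.81, 0.72 and 1.66 FPKM in control livers, and B230220B15Rik overlaps 65.6% of its exon bases on the opposite strand.

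Ndufa4 had the largest difference of any member. The protein was first counted in complex I and is now assigned to complex IV, and the gene lies on chromosome 6 (11900292 to 11907497). It had 48.2, 11.5 and 4.98 FPKM in DEN+CCl4 livers, against 103, 24.6 and 106 FPKM in control livers. Control liver 2 was low and lay among the treated values, so the groups overlapped. The DEN+CCl4 mean of 21.6 ± 23.3 FPKM was 27.8% of the control mean of 77.6 ± 46.0 FPKM (SD, n = 3 each). The log2 fold change of -2.09 (SE 0.91) had an adjusted p of 0.451 in limma. It was called without DEN+CCl4 liver 1 alone of the alternatives run, at -2.92 with an adjusted p of 0.0429 in limma, where adjusted p over the alternatives ran from 0.0429 to 0.9998. The library left out held the highest treated value of Ndufa4. In the same fit 3.17% of all genes tested were called lower.

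The other 2 members had smaller differences. Ndufa4l2, a paralog of Ndufa4 known to be induced in low oxygen, had 4.0, 4.36 and 2.03 FPKM in DEN+CCl4 livers, against 3.72, 5.62 and 4.38 FPKM in control livers, with a log2 fold change of -0.35 (SE 0.58). Ndufab1-ps had 1.79, 0.96 and 0.50 FPKM in DEN+CCl4 livers, against 1.15, 0.42 and 1.86 FPKM in control livers, with a log2 fold change of -0.03 (SE 0.40). Of its 31-base words 84.0% occur in other genes, mostly Ndufab1, so its value is uncertain.

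Proportions among subunits do not depend on the total FPKM of a library. When each subunit was divided by the summed subunit FPKM of its library, 1 of 36 (2.78%) had groups that did not overlap, beside 2.40% of all genes tested, which were lower when divided by the same sum. This was Ndufb2, a membrane arm subunit, at 0.192%, 0.189% and 0.136% of the sum in DEN+CCl4 livers, against 0.198%, 0.235% and 0.233% in control livers. As FPKM it had 3.29, 1.65 and 0.30 in DEN+CCl4 livers, against 3.56, 2.63 and 4.61 in control livers. No subunit was higher in all DEN+CCl4 livers on this measure, and Ndufab1-ps was the only member that was, beside 8.74% of all genes tested. The highest subunit exceeded the lowest by 78.9, 56.8 and 76.9 times in DEN+CCl4 livers, against 94.2, 41.1 and 87.3 times in control livers. Across the 36 subunits, genes with longer exons had lower control FPKM (Pearson r = -0.707, Spearman rho = -0.59 on log2 scales), a description across genes that share the same libraries and the same length term. The relation of exon length to the log2 ratio of group means was weaker, with r = 0.28 and rho = 0.349.

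The summed level of the assembly factors was also set against that of the subunits in each library. There were 14.6, 23.7 and 34.7 assembly factor FPKM per 1000 subunit FPKM in DEN+CCl4 livers, against 17.6, 18.5 and 15.9 in control livers. DEN+CCl4 livers 2 and 3 lay above every control, and DEN+CCl4 liver 1 lay below every control. With groups that overlapped, no difference beyond the spread between replicates was shown.

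The 7 complex I subunits encoded by mitochondrial DNA, which form the proton-pumping core of the membrane arm, all had positive log2 fold changes as deposited, with a median of 0.76 (1.66 after protein-coding rescaling), and none was called. Their summed FPKM per nuclear subunit FPKM was 36.5, 82.5 and 790 in DEN+CCl4 livers, against 26.6, 66.2 and 26.2 in control livers. DEN+CCl4 livers 2 and 3 lay above every control and DEN+CCl4 liver 1 lay between them. mt-Nd1 had 12786, 22758 and 53889 FPKM in DEN+CCl4 livers, against 11195, 18737 and 13129 FPKM in control livers. mt-Nd4l had groups that did not overlap, higher in DEN+CCl4 livers, with a log2 fold change of 1.05 (SE 0.79, adjusted p = 0.963 in limma), beside 3.01% of all genes tested. With median-ratio scaling or protein-coding rescaling the groups of all 7 overlapped. These transcripts make up part of the mitochondrial share that was highest in DEN+CCl4 liver 3, and the part of library composition in this ratio was not tested.

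**Figure D4:**
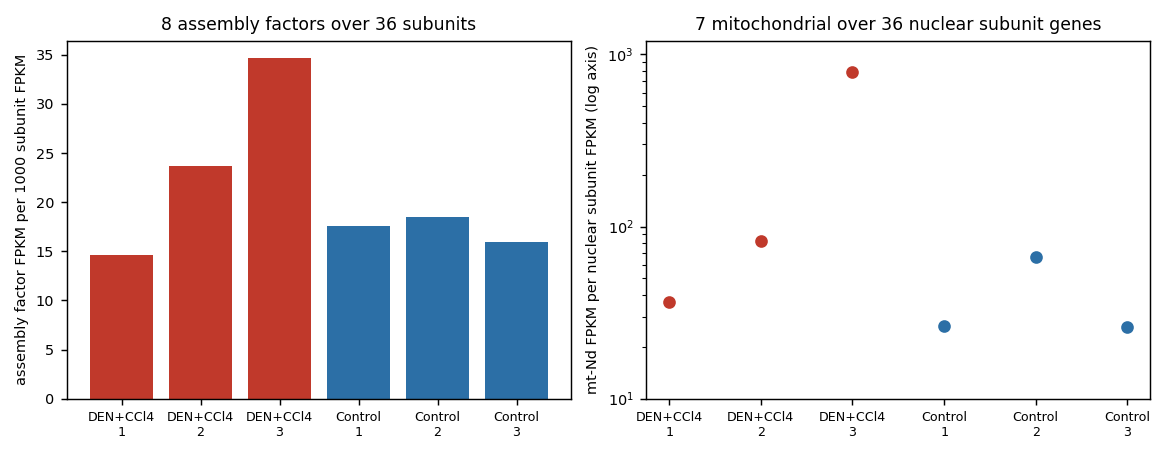
Left, bars give the summed FPKM of the 8 assembly factors per 1000 FPKM of the 36 subunits in each library; right, points on a log axis give the summed FPKM of the 7 mitochondrially encoded subunits per FPKM of the nuclear subunits, with DEN+CCl4 livers (red) left of control livers (blue). DEN+CCl4 livers 2 and 3 lie above every control in both, at 23.7 and 34.7 on the left and 82.5 and 790 on the right.

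Complex I assembly factors without the Nduf prefix were also counted. Of 11, 7 were tested and 0 called, with a median log2 fold change of -0.47 as deposited, beside -0.57 for the Ndufaf genes. After protein-coding rescaling their median was 0.12, with 1 negative and 6 positive, beside -0.0039 for the Ndufaf genes and 0.30 for all genes tested. Ecsit, a partner of Ndufaf1, had 13.6, 8.14 and 1.37 FPKM in DEN+CCl4 livers, against 13.3, 12.1 and 15.4 FPKM in control livers. Timmdc1, which acts on the membrane arm, had 5.38, 5.34 and 2.10 FPKM in DEN+CCl4 livers, against 7.07, 5.65 and 7.29 FPKM in control livers, with groups that did not overlap. The groups of Tmem70, which also acts in ATP synthase assembly, did not overlap either, at 2.81, 2.12 and 1.30 FPKM in DEN+CCl4 livers, against 3.03, 3.15 and 2.93 FPKM in control livers. These were 2 of the 7 tested, beside 5.35% of all genes tested that were lower in this way. With median-ratio scaling or protein-coding rescaling the groups of all 7 overlapped. Of 17 regulators of mitochondrial gene expression, 13 were tested and 0 called, with a median of -0.44 as deposited and 0.23 after protein-coding rescaling, where 2 were negative and 11 positive. The coactivator Ppargc1a was under the limit for testing, at 0.76, 0.20 and 0.05 FPKM in DEN+CCl4 livers, against 0.72, 0.97 and 0.84 FPKM in control livers. Its DEN+CCl4 mean was 39.9% of the control mean, the lowest share of the 17 regulators. Pprc1 stood at 159%, and Gabpb1 and Nrf1, both under the limit for testing, stood at 136% and 104%. The other regulators lay between Ppargc1a and Nrf1.

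Nuclear genes of the later respiratory complexes had median log2 fold changes of -1.26 over 9 of complex III, -1.40 over 10 tested of complex IV and -1.08 over 16 of complex V, beside -1.12 for the complex I subunits, with 0 called. The complex V list includes Atpif1, an inhibitor of ATP synthase and not a subunit, with a log2 fold change of 0.12. The complex IV list leaves out Ndufa4. After protein-coding rescaling the medians were -0.45, -0.53 and -0.23 for complexes III, IV and V, beside -0.28 for complex I. On that scale the median complex III subunit stood at 101%, 62.6% and 54.6% of its control mean in DEN+CCl4 livers, against 90.4%, 92.4% and 116% in control livers. The median complex V subunit stood at 104%, 64.3% and 86.9% in DEN+CCl4 livers, against 105%, 83.2% and 113% in control livers. The median complex IV subunit stood at 102%, 54.7% and 44.7% of its control mean in DEN+CCl4 livers, against 96.8%, 84.7% and 115% in control livers. The 73 tested of 78 mitochondrial ribosomal proteins had a median of -0.61 as deposited and 0.08 after rescaling, beside -0.57 and -0.0039 for the assembly factors. These lists share all 6 libraries with the Nduf genes, and their differences from them were not tested.

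Markers of the cell types of the liver were read beside the members. Of 6 stellate cell and myofibroblast markers 5 were tested and 0 called, and their sum was 13.2 to 33.1 FPKM in DEN+CCl4 livers, against 7.13 to 11.2 FPKM in control livers. Col1a1 and Col3a1, which encode fibrillar collagens, and Acta2, smooth muscle actin, had groups that did not overlap, higher in DEN+CCl4 livers, with adjusted p = 0.123, 0.314 and 0.282 in limma, where 3.01% of all genes tested had such groups. Lrat, the retinol-esterifying enzyme of quiescent stellate cells and under the limit for testing, did not overlap in the other direction, at 0.31, 0.35 and 0.15 FPKM in DEN+CCl4 livers, against 0.58, 0.46 and 0.40 FPKM in control livers. Dcn and Des, the other 2 of the list, overlapped between the groups. Of 6 hepatocyte markers 6 were tested and 0 called, and their sum was 16637 to 73131 FPKM in DEN+CCl4 livers, against 31002 to 50080 FPKM in control livers, so the labelled tissue was present in every library. Albumin had 11748, 24459 and 7482 FPKM in DEN+CCl4 livers, against 15311, 13751 and 23556 FPKM in control livers. The median hepatocyte marker stood at 86.1%, 151% and 40.4% of its control mean in DEN+CCl4 livers 1, 2 and 3, where the median complex I subunit stood at 105%, 52.6% and 13.3%. In DEN+CCl4 liver 2, 5 of the 6 markers lay above all 3 controls, whereas transthyretin (Ttr) lay below them. Of the 8528 genes tested, 3849 lay above all 3 controls in that library and 1933 below them. Ttr had 4130, 2103 and 219 FPKM in DEN+CCl4 livers, against 4175, 2891 and 6045 FPKM in control livers. Macrophage markers summed to 28.5 to 88.8 FPKM in DEN+CCl4 livers, against 52.1 to 133 FPKM in control livers, and erythroid markers to 142 to 2649 FPKM in DEN+CCl4 livers, against 236 to 639 FPKM in control livers. Endothelial markers summed to 4.76 to 13.4 FPKM in DEN+CCl4 livers, against 5.07 to 10.2 FPKM in control livers, and cholangiocyte markers to 14.5 to 34.0 FPKM, against 9.20 to 16.4 FPKM in control livers. Most of the cholangiocyte sum was Spp1, at 12.9, 27.4 and 24.2 FPKM in DEN+CCl4 livers, against 14.9, 8.75 and 8.20 FPKM in control livers. Epcam and the endothelial marker Lyve1, both under the limit for testing, had groups that did not overlap. In DEN+CCl4 livers Epcam was lower and Lyve1 higher, at 0.76, 1.65 and 1.06 FPKM, against 0.17, 0.30 and 0.12 FPKM in control livers. Lymphocyte markers summed to 2.75 to 6.88 FPKM in DEN+CCl4 livers, against 3.71 to 5.38 FPKM in control livers, and the 4 cycling markers to 0.53 to 0.83 FPKM, against 0.10 to 0.20 FPKM in control livers. The lymphocyte marker Nkg7 and the cycling markers Mki67, Top2a and Ccnb1 had groups that did not overlap, higher in DEN+CCl4 livers. The cycling markers were all under the limit for testing, and Nkg7 stands beside the 3.01% of all genes tested. That share was not taken for genes under the limit. The separation of Lrat, Epcam, Lyve1 and the cycling markers therefore has no share to stand beside. Of these markers, Epcam was listed at 0 in DEN+CCl4 liver 3 and Ccnb1 in control liver 2. These marker values are as deposited. After protein-coding rescaling the median macrophage marker stood at 98.6%, 107% and 239% of its control mean in DEN+CCl4 livers. In control livers it stood at 145%, 101% and 61.1%. On that scale the median hepatocyte marker stood at 88.1%, 208% and 205% in DEN+CCl4 livers. Endothelial markers stood at 132%, 261% and 298%, and lymphocyte markers at 105%, 229% and 277%. All genes tested stood at 102%, 147% and 139%. The part of cell composition in the member values was not tested.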

How the data were processed

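The authors deposited 1 table of FPKM values, which has a column for each library per the file headers. HISAT, StringTie and GRCm38 are named in the submitters' processing notes, but versions, settings and strand use are not given in the sources read here. The table holds no counts, so depth is unknown and no counting interval is given. Because FPKM is relative to the mapped total, a few very abundant genes can lower the values of all others in a library.

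Members and lists were chosen with earlier results of these data known. Genes averaging 1 FPKM or more (8528 of 25102) were fitted on log2(FPKM + 1) in limma 3.58.1 under R 4.3.3, with moderated variances that follow the mean, a two-sided test without covariates, and Benjamini-Hochberg adjustment over all 8528 genes at a threshold of 0.05. Only Nduf rows and listed genes are printed. Gene positions were read from GENCODE M21 (GRCm38), and promoters from RefSeq (GRCm38.p6). The fit was tested on simulated data. Other steps used Python 3.11.15, pandas 2.3.3, numpy 2.4.6 and matplotlib 3.10.9.

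Values in every library are given for the nuclear core subunits (1 of the 7 is not reported here by itself, and stays in the counts, sums and medians), the assembly factors, the members that are not complex I subunits, the 5 other subunits with the highest control mean, the 3 tested members with the highest and the 3 with the lowest log2 fold change, and members whose groups did not overlap. Ndufs4, Ndufab1, Ndufa11, the printed promoters, mt-Nd4l, Timmdc1, Ecsit, Ppargc1a, Col1a1, Col3a1 and Acta2 were chosen after their values were seen. So were Pprc1, Gabpb1, Nrf1, Spp1, Epcam, Lyve1, Nkg7, Mki67, Top2a and Ccnb1. As alternatives, the pseudocount was set to 0.1 or 0.01, the filter was dropped or raised to 5 FPKM, and libraries were scaled by median ratios, by their nuclear total or by quantiles. The trend was dropped, the replicate number was added as a block, each library was omitted once, and the first 2 of these scalings were repeated without DEN+CCl4 replicate 3. Protein-coding rescaling, alone and without DEN+CCl4 replicate 3, was added after the data were seen.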

Additional observations from a re-analysis of the deposited data

How the results depend on the processing

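No Nduf subunit or assembly factor was called under any of the 19 alternatives. Subunit medians of the log2 fold change ran from -1.68 to -0.15, and assembly factor medians from -0.93 to -0.0039, the value under protein-coding rescaling. Relative to the median of all genes tested, subunit medians ran from -1.25 to -0.39 and assembly factor medians from -0.53 to -0.15. With 1 library left out the class medians themselves ran from -1.68 to -0.33 and from -0.81 to -0.24. Over all genes, calls (higher and lower) were 71 and 55 as reported, 6 and 3 at a pseudocount of 0.1, 4 and 0 at 0.01, 14 and 53 with the filter at 5 FPKM, 6 and 3 with nuclear rescaling, 3 and 1 with nuclear rescaling without DEN+CCl4 replicate 3, and 0 and 0 with no filter, median-ratio scaling (also without DEN+CCl4 replicate 3), quantile normalization, no trend or protein-coding rescaling (also without that replicate). With 1 library left out they were 0 to 109 higher and 0 to 270 lower. The replicate block gave 62 and 32 calls and no member. Same-numbered libraries correlated at 0.0716, 0.416 and -0.146 for numbers 1, 2 and 3 in their deviations from the group means. Differently numbered ones ran from -0.372 to 0.228. With 3 libraries per group, these values cannot decide whether the numbers stand for pairs or batches.

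Of 825 values of the 44 members reported singly under the alternatives, 793 kept their sign and side of the threshold, and 31, from 12 members and none called, turned positive. Ndufa4 was called without DEN+CCl4 replicate 1 (-2.92), where 3.17% of all genes tested were called lower. Under protein-coding rescaling the values were 0.348 for Ndufa4l2, 0.0532 for Ndufab1, 0.405 for Ndufab1-ps, 0.320 for Ndufaf3, 0.233 for Ndufaf7, 0.0804 for Ndufaf8, 0.0612 for Ndufc1, 0.212 for Ndufs3 and 0.0715 for Ndufs8. Without DEN+CCl4 replicate 3 as well they were 0.0516 for Ndufa4l2, 0.178 for Ndufa8, 0.266 for Ndufab1-ps, 0.00249 for Ndufaf3, 0.170 for Ndufb4, 0.254 for Ndufs8 and 0.0412 for Ndufv1. With nuclear rescaling without that replicate they were 0.0335 for Ndufa4l2, 0.146 for Ndufa8, 0.270 for Ndufab1-ps, 0.141 for Ndufb4, 0.222 for Ndufs8 and 0.0136 for Ndufv1. Ndufab1-ps was at 0.0944 with median-ratio scaling, 0.0524 with that and without DEN+CCl4 replicate 3, 0.0663 with nuclear rescaling and 0.131 with quantile normalization, where Ndufs3 was at 0.0168. With 1 library left out Ndufab1-ps ran from -0.298 to 0.207 and Ndufs8 from -1.39 to 0.0656. The causes were not tested. Depth is unknown, so its limit on members near 1 FPKM could not be set.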
